A study of Mus musculus with 9 samples.

Results

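The comparison described here sets all 6 cortical libraries from mice with a P301S tau transgene, pooled over 2 peptide treatments, against the 3 libraries from untreated wild-type mice, gene by gene. The libraries were chosen by their titles, and they make up all 9 libraries of the series. The files list 55401 genes, of which 32394 had a count in some library and 16046 had enough counts to be tested. RNA came from cortical nuclei sorted on NeuN, a protein of neuronal nuclei. Within the pool, 3 libraries came from P301S mice given the scrambled ("scrmb") peptide and 3 from P301S mice given the Cdk5i peptide. Both peptides were injected into the peritoneum at 20 mg per kg on alternate days, and the mice were 7 to 9 months old. Wild-type mice had no transgene and no injection, so the effect of the transgene and that of an injection cannot be told apart. The labels name neither the P301S line nor the promoter of its transgene, and they do not say that each library is a separate animal. The p-values therefore reflect how these libraries vary, and that variation may be technical.

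Tau, encoded by Mapt, binds microtubules in axons, and the P301S change in human tau causes an inherited frontotemporal dementia. In mice that carry it, tau becomes phosphorylated and aggregates in neurons. Cdk5 is a neuronal kinase that is switched on by p35, the product of Cdk5r1, and tau is among its substrates. Lines of P301S mice differ in the promoter that drives the transgene, which is that of the mouse prion protein gene in one widely used line and that of Thy1 in another.

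The libraries held 21584712 to 26715938 counts each. The share of ribosomal RNA genes was 1.13 to 3.06% in wild type and 0.771 to 1.57% in P301S, and mitochondrially encoded genes held 0.0922 to 0.127% and 0.0793 to 0.137%. Markers of neurons were read in every library, and 7 of 16 microglial and 5 of 15 blood vessel markers had at most 10 counts in each of the 9 libraries. Summed levels of a cell type's markers overlapped between the groups for excitatory neurons, inhibitory neurons, astrocytes and microglia. The groups overlapped on each of the first 4 principal components, which held 23.9, 18.1, 14.9 and 11.9% of the variance.

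Few genes passed the threshold of the main test. With edgeR's quasi-likelihood test and Benjamini-Hochberg adjustment over all 16046 genes, 20 genes had an adjusted p under 0.05, which is 0.125% of those tested. Of these, 9 were higher in P301S (0.0561%) and 11 lower (0.0686%). DESeq2 called 99 higher and 105 lower of 16046 genes. Without a low-count filter, edgeR called 174 higher and 171 lower of 32394. With library sizes taken without ribosomal RNA and mitochondrial genes, and without TMM factors, 21 were higher and 9 lower. The typical gene shifted by 0.0372 (log2) under that scaling, and which of these changes moved it was not tested. At an unadjusted p under 0.05 there were 989 higher genes (6.16%) and 932 lower genes (5.81%). The 6 P301S libraries lay wholly above the wild-type libraries for 517 genes (3.22%) and wholly below them for 526 (3.28%). Levels below are CPM, counts scaled to a common library size with TMM factors, as mean ± SD (n = 3 wild type, n = 6 P301S). CPM is not divided by gene length, so levels of different genes are not compared.

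All 20 genes had groups that did not overlap. The protein-coding genes that rose in P301S were Prn, Pdzd2, Cabp1, Hrh3, Ahdc1 and Acot7. Those that fell were Unc5c, Zfp990, Ercc6l2, Pdzrn4, Npsr1, Pcsk5, Brinp3 and Ide. The other 6 were the pseudogene Lamr1-ps1 and the long non-coding RNAs 4930590L14Rik and 2610035D17Rik, which rose, and Gm12371, Gm29865 and AC102496.1, which fell.

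The promoters of 3 of the genes that rose are shown because the 6 letters TATAAA occur in them, at some place in the 250 bases before the RefSeq start and on either strand. RefSeq (GRCm38.p6) gave a promoter for 17 of the 20 genes, and the letters were found in these 3 of 17, against 12.4% of 32851 promoters of the same length. Capitals mark TATAAA, or TTTATA where it lies on the opposite strand. The match of 2610035D17Rik ends 27 bases before the start, those of 4930590L14Rik end 74 and 166 bases before it, and that of Prn, on the opposite strand, 180 bases before it. Each sequence is written 5′ to 3′ on the strand of its gene, from chr3:140951585-140951834 (plus strand) for 4930590L14Rik, chr11:113201839-113202088 (minus strand) for 2610035D17Rik and chr2:131909678-131909927 (plus strand) for Prn.
4930590L14Rik: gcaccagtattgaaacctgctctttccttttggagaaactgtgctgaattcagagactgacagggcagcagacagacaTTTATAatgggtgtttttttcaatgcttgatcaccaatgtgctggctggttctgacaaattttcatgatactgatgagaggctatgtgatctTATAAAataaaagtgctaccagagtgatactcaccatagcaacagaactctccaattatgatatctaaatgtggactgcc
2610035D17Rik: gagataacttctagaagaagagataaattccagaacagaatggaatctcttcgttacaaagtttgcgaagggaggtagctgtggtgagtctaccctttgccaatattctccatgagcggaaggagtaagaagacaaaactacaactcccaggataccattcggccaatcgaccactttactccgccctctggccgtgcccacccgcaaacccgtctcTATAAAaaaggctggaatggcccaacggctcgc
Prn: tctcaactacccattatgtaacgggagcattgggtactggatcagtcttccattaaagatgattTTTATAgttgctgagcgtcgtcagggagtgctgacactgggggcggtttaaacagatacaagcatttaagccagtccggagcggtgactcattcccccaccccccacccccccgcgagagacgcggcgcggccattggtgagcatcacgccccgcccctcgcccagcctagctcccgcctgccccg
The E-box letters CACGTG were found in 1 of the 17 promoters, that of Npsr1, against 6.02% of all promoters, and the cyclic AMP response element TGACGTCA in 0 of 17, against 1.55%. Median GC content was 56.4% over the 17 promoters and 52.4% over all.

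**Figure D1:**
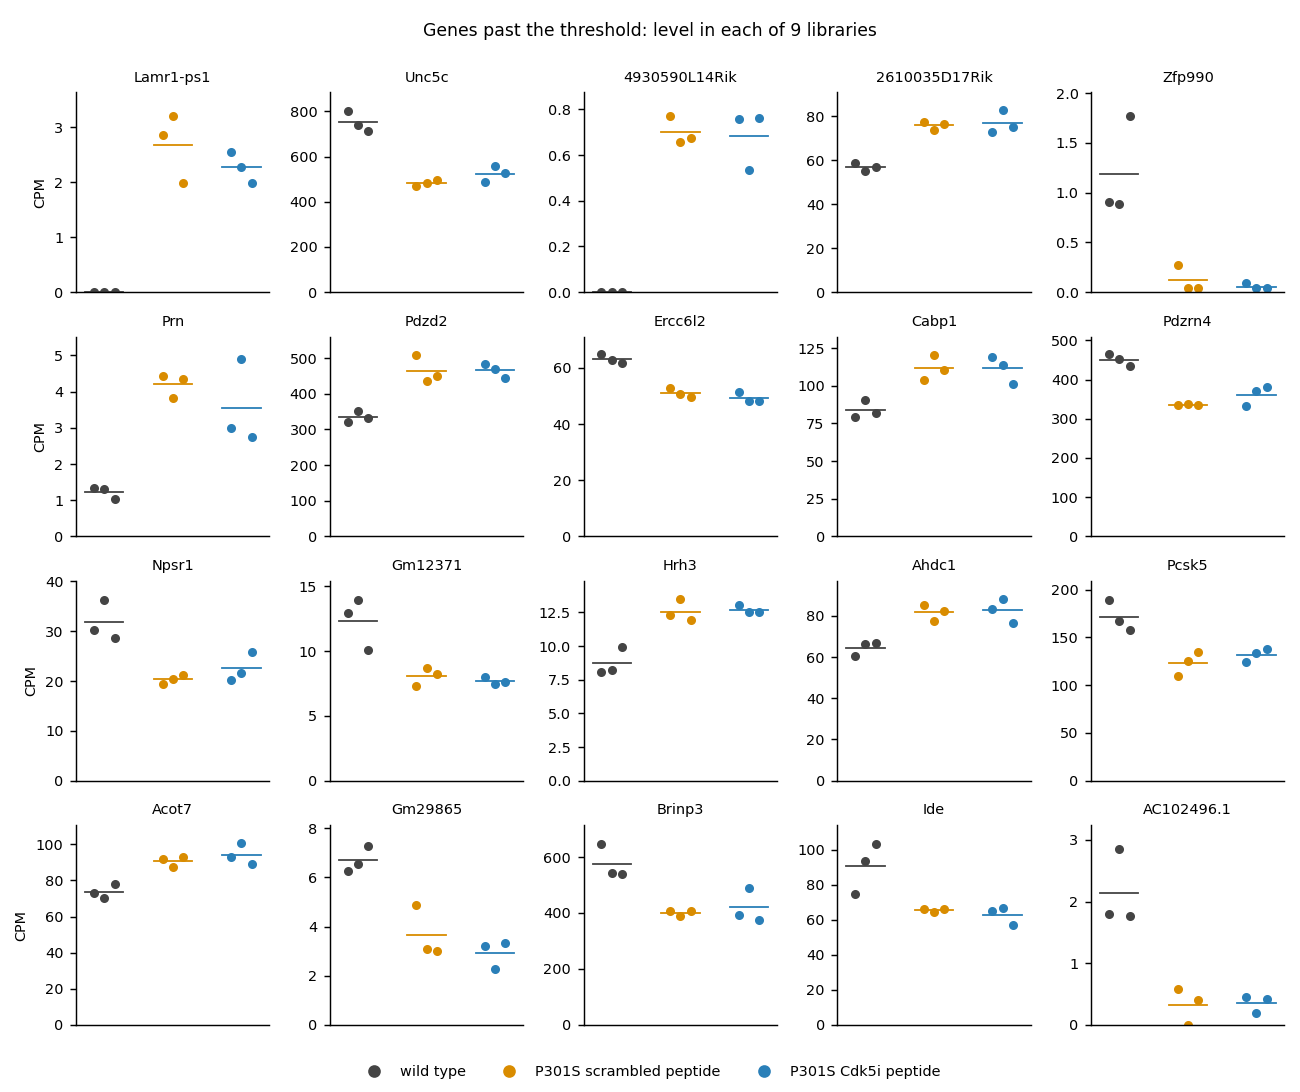
Level of each of the 20 genes with an adjusted p under 0.05 in each of the 9 libraries, in CPM from 0 on linear axes that differ between genes; points are libraries and lines are means of 3 libraries. In every panel the wild-type libraries lie apart from all 6 P301S libraries, and the scrambled and Cdk5i peptide libraries lie side by side.

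The strongest differences at the prion protein locus on chromosome 2 were in Lamr1-ps1 and Prn, which lie 5.871 kb apart. Lamr1-ps1 is an intronless pseudogene copy of Rpsa, the gene of a ribosomal protein also known as the laminin receptor (ENSMUSG00000081229, chr2:131904086-131904959). It had 0 counts in each wild-type library and 50 to 74 counts in each P301S library. In CPM these were 2.85, 3.20 and 1.98 with scrambled peptide and 2.54, 2.29 and 1.99 with Cdk5i peptide. The group mean in P301S was 2.48 ± 0.489 CPM, at least 52.9-fold higher than the level that 3 counts summed over wild type would give (edgeR adjusted p = 9.5e-05). Reads of a processed pseudogene can be shared with its parent, so its level is uncertain. Rpsa itself was at 5.95 ± 0.512 CPM in wild type and 6.16 ± 1.04 in P301S, a log2 fold change of 0.05 (95% interval -0.26 to 0.35, adjusted p = 0.922).

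Prn is a locus that joins the prion protein gene Prnp and its neighbour Prnd, which encodes a related protein (ENSMUSG00000098754, chr2:131909957-131956130). Wild-type libraries had 1.33, 1.31 and 1.04 CPM of Prn. The P301S libraries had 4.43, 3.82 and 4.36 with scrambled peptide and 2.99, 4.92 and 2.75 with Cdk5i peptide, all above wild type. Prn rose from 1.23 ± 0.159 to 3.88 ± 0.858 CPM, a log2 fold change of 1.66 (SE 0.223, edgeR adjusted p = 0.00866). The adjusted p was 0.0519 without wild type replicate 1 and 0.0815 without wild type replicate 3. Prnp and Prnd cover 73.1% of the span of Prn on the same strand, and read pairs that overlap several genes were not counted, so the counts of Prn come from the rest of its span. The same rule applies to Prnp, which had 0 to 2 counts in each library and was not tested. Between 5 Mb before and 5 Mb after the start of Prn, 101 other genes were tested, of which 44 had positive and 57 negative log2 fold changes, with a median of -0.02. None of these passed with edgeR, 10 had an unadjusted p under 0.05, and in 3 the groups stood apart. Over all genes tested, 6.16% were higher and 5.81% lower at that p, and the groups stood apart for 3.22% higher and 3.28% lower. Among the 101 genes Lzts3, which encodes a postsynaptic scaffold protein, had the lowest adjusted p (28.3 ± 1.38 and 36.9 ± 2.64 CPM, log2 fold change 0.38, adjusted p = 0.0556).

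On chromosome 3, Unc5c and 4930590L14Rik moved in opposite directions, with starts 513 kb apart. Unc5c encodes a receptor for netrin that turns axons away from a netrin source (ENSMUSG00000059921, chr3:141465216-141834924). Its levels were 802, 739 and 714 CPM in untreated mice, 468, 482 and 497 under scrambled peptide, and 488, 559 and 528 with Cdk5i peptide. The highest P301S library was thus below the lowest wild-type library. Unc5c fell from 752 ± 45.3 to 504 ± 33.8 CPM, a log2 fold change of -0.58 (SE 0.0677, 95% interval -0.72 to -0.43, edgeR adjusted p = 0.00446). Only 5.18% of its span is exon, so most of the sequence in which its reads were counted is intron.

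The long non-coding RNA 4930590L14Rik (ENSMUSG00000106540, chr3:140951876-140953247) had 0 counts in each wild-type library and 14 to 20 in each P301S library. Those libraries were at 0.771, 0.658 and 0.674 CPM with scrambled peptide and 0.759, 0.533 and 0.764 with Cdk5i peptide. The P301S mean of 0.693 ± 0.0922 CPM was at least 14.9-fold higher than the same floor (edgeR adjusted p = 0.00446). Both genes passed in each of the 9 fits that left out 1 library. Within 5 Mb of the start of Unc5c, 48 other genes were tested, 18 with positive and 30 with negative log2 fold changes and a median of -0.05. None passed with edgeR, 4 had an unadjusted p under 0.05, all of them lower, and in 4 the groups stood apart. Over all genes tested, 5.81% were lower at that p, and the groups stood apart for 3.22% higher and 3.28% lower. The lowest adjusted p among the 48 genes was that of Pdlim5, which encodes a protein that anchors kinases to the cytoskeleton (18.7 and 14.5 CPM, log2 fold change -0.37, adjusted p = 0.136).

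**Figure D2:**
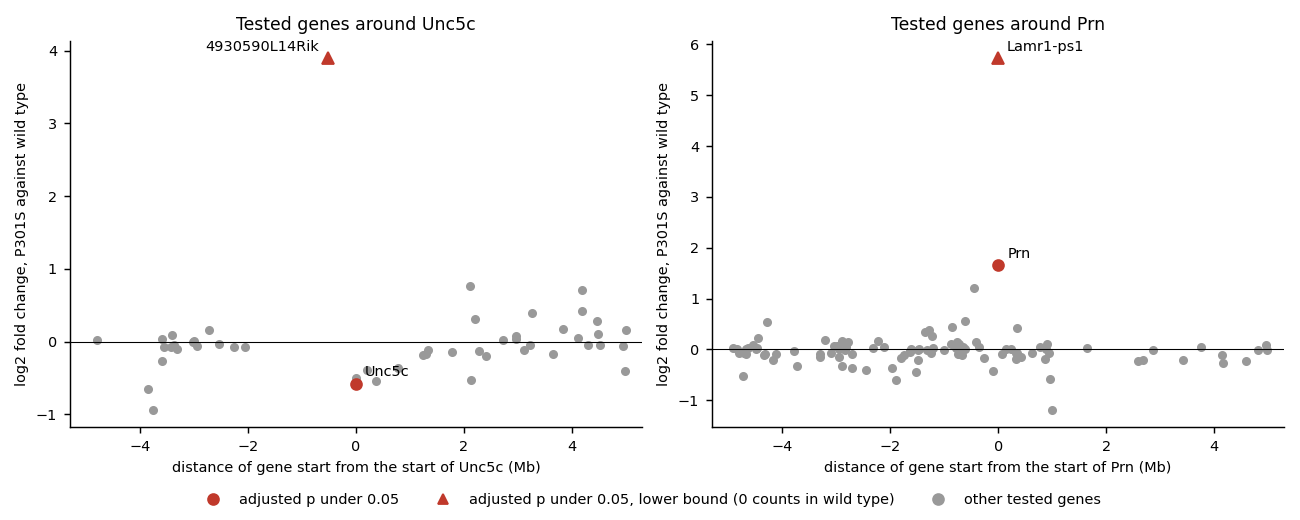
Log2 fold change of P301S against wild type for tested genes within 5 Mb of Unc5c (left, 50 genes) and Prn (right, 103 genes), by distance of their starts in Mb; red marks an adjusted p under 0.05, and triangles are lower bounds for genes with 0 counts in wild type. Only the named genes are red, and the other genes lie between -1.19 and 1.20.

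The remaining 16 genes lay more than 5 Mb from any other gene that passed. Chromosome 4 held 4 of the 20, chromosomes 2 and 3 held 3 each, chromosomes 15 and 19 held 2 each, and chromosomes 1, 5, 9, 11, 13 and 18 held 1 each. Zfp990, a zinc finger protein gene on chromosome 4 (chr4:145510759-145539188), was read at 0.901, 0.889 and 1.77 CPM in wild type. The P301S libraries had 0.27, 0.0439 and 0.0397 CPM with scrambled peptide and 0.0893, 0.0381 and 0.0382 with Cdk5i peptide, or 1 to 7 counts each. There were 77 counts in wild type and 13 in P301S in all, and allowing for depth the wild-type level was 13.7-fold higher (counting interval 7.54 to 26.8, edgeR adjusted p = 0.00866). Genes of this family resemble each other, so the sharing of reads between copies makes its level uncertain. Scrambled peptide replicate 1 held 7 of the 13 counts, and without it the wild-type level was 24.4-fold higher (10.7 to 68.7). Without wild type replicate 3, the highest of the 9, the adjusted p was 0.0857.

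2610035D17Rik, a long non-coding RNA on chromosome 11 (chr11:113043895-113201838), rose from 56.8 ± 1.88 to 76.4 ± 3.51 CPM. Wild-type libraries had 58.6, 54.9 and 56.9 CPM, and P301S libraries ran from 73.0 to 82.7 with a median of 75.8. The log2 fold change was 0.43 (SE 0.0537, edgeR adjusted p = 0.00585), and the adjusted p was 0.0552 without wild type replicate 3. Pdzd2, which encodes a protein with several PDZ domains (chr15:12359711-12739924), was at 321, 352 and 333 CPM in wild type. Its P301S libraries ran from 436 to 509 CPM with a median of 460. Pdzd2 rose from 335 ± 15.5 to 465 ± 27.7 CPM (log2 fold change 0.47, SE 0.0647, adjusted p = 0.00894). Its adjusted p was 0.117 without wild type replicate 1 and 0.0815 without wild type replicate 3.

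Ercc6l2 encodes a helicase-like protein with a role in DNA repair (chr13:63815240-63900302). It was at 65.0, 62.7 and 61.9 CPM in wild type and between 48.3 and 52.8 in P301S, median 50.1. It fell from 63.2 ± 1.60 to 50.2 ± 1.78 CPM (log2 fold change -0.33, SE 0.0494, edgeR adjusted p = 0.0191). That call was lost without wild type replicate 1, 2 or 3 and without scrambled peptide replicate 3, with adjusted p up to 0.155. None passed of 30 tested genes on a list of DNA damage response and repair, which was chosen with earlier results of these data known. At an unadjusted p under 0.05, 2 of the 30 were higher and 0 lower, beside 6.16% and 5.81% over all genes tested. The median log2 fold change of the list was 0.01.

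The other 12 genes had adjusted p between 0.0433 and 0.0454 and depended on single libraries. In the 9 edgeR fits that left out 1 library, Cabp1 passed in 3, Pdzrn4 in 2, and Npsr1, Gm12371, Ahdc1, Gm29865, Brinp3, Ide and AC102496.1 in 1 each. Hrh3, Pcsk5 and Acot7 passed in 0 of the 9, with the lowest adjusted p at 0.0552, 0.0541 and 0.0648, and with DESeq2 all 3 passed. Over these fits the adjusted p of the 12 genes ran from 0.00512 to 0.330. The sign of the difference was kept by each of the 20 genes in each alternative that gave a value.

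Among these 12 were 2 receptors of neuromodulators. Npsr1 encodes the receptor of neuropeptide S, a peptide linked to arousal and fear. It was at 30.3, 36.3 and 28.7 CPM in wild type and between 19.4 and 25.9 in P301S, median 20.8. Npsr1 fell from 31.8 ± 3.98 to 21.5 ± 2.29 CPM, a log2 fold change of -0.56 (SE 0.0936, edgeR adjusted p = 0.0433), and among the fits with 1 library left out it passed only without Cdk5i peptide replicate 3. Hrh3 encodes the histamine H3 receptor, which limits transmitter release from nerve endings. Wild-type libraries had 8.06, 8.24 and 9.90 CPM and P301S libraries 11.9 to 13.5, median 12.5. Hrh3 rose from 8.73 ± 1.01 to 12.6 ± 0.552 CPM, a log2 fold change of 0.53 (SE 0.0901, adjusted p = 0.0454).

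Cabp1 encodes a neuronal calcium sensor that acts on calcium channels. It rose from 84.1 ± 5.85 to 112 ± 7.88 CPM (log2 fold change 0.41, SE 0.0676, edgeR adjusted p = 0.0433), with wild-type libraries at 79.6, 90.7 and 81.9 and P301S libraries from 101 to 121, median 112. Acot7, whose product cleaves long-chain acyl-CoA in neurons, rose from 73.8 ± 3.67 to 92.5 ± 4.66 CPM (0.33, SE 0.0566, adjusted p = 0.0454). Its wild-type libraries were at 73.2, 70.5 and 77.7 CPM and its P301S libraries ran from 87.4 to 101, median 92.2. Ahdc1, a gene for a DNA-binding protein whose loss causes a developmental disorder in humans, rose from 64.6 ± 3.45 to 82.2 ± 4.54 CPM (0.35, SE 0.0593, adjusted p = 0.0454). Wild type had 60.6, 66.4 and 66.7 CPM of Ahdc1 and P301S 76.3 to 88.3, median 82.8. None of these 3 genes had a P301S library at or below a wild-type one.

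Proteases were among the genes that fell. Ide encodes the insulin-degrading enzyme, which also cleaves amyloid-beta peptide. Wild-type libraries had 74.5, 93.7 and 103 CPM of Ide, and the P301S libraries ran from 57.2 to 66.4 with a median of 65.7. Ide fell from 90.4 ± 14.6 to 64.3 ± 3.55 CPM, a log2 fold change of -0.49 (SE 0.0841, edgeR adjusted p = 0.0454), and with 1 library left out it passed only without wild type replicate 1, its lowest wild-type library. Pcsk5 encodes a proprotein convertase, which cuts precursors of secreted proteins. It was at 190, 167 and 158 CPM in wild type and from 110 to 137 in P301S, median 129, and fell from 172 ± 16.1 to 127 ± 10.3 CPM (log2 fold change -0.43, SE 0.0746, adjusted p = 0.0454).

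Brinp3, which belongs to a neural gene family induced by retinoic acid and bone morphogenetic protein, fell from 576 ± 61.7 to 411 ± 40.6 CPM (log2 fold change -0.49, SE 0.0851, edgeR adjusted p = 0.0454). Its wild-type libraries were at 647, 542 and 539 CPM and its P301S libraries ran from 377 to 490, median 399.7. It passed with 1 library left out only without Cdk5i peptide replicate 2, the highest in P301S. Pdzrn4 encodes a protein with PDZ and RING domains. It was at 465, 453 and 435 CPM in wild type and from 332 to 380 in P301S, median 337, and fell from 451 ± 14.9 to 349 ± 21.4 CPM (log2 fold change -0.37, SE 0.0615, adjusted p = 0.0433).

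The 3 long non-coding RNAs that fell were all low. Gm12371 had 13.0, 13.9 and 10.1 CPM in wild type and 7.33 to 8.74 in P301S (log2 fold change -0.64, SE 0.107, edgeR adjusted p = 0.0433). Gm29865 had 6.26, 6.55 and 7.27 CPM against 2.29 to 4.86 (log2 fold change -1.02, SE 0.178, adjusted p = 0.0454), with scrambled peptide replicate 1 the nearest to wild type. AC102496.1 had 138 counts over the wild-type libraries and 51 over the P301S libraries, of which 1 had 0. Allowing for depth its wild-type level was 6.24-fold higher (counting interval 4.50 to 8.79, adjusted p = 0.0454). For none of these RNAs did the groups overlap.

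Because the pool holds 2 treatments, the peptides were also compared with each other. None of the 20 genes differed between Cdk5i and scrambled peptide with edgeR at an adjusted or an unadjusted p under 0.05, and none passed with DESeq2. These genes were chosen by the pooled fit, which counts a difference between peptides as spread. Genes with such a difference are less likely to pass it, so its absence here is partly set by the choice of genes. The lowest unadjusted p was 0.121, for Unc5c, whose Cdk5i minus scrambled log2 difference was 0.12 (95% interval -0.04 to 0.28). Over the 20 genes the median absolute difference between peptides was 0.0652 and the median interval reached 0.22 to either side, so differences within such intervals could not be seen. The widest, for Zfp990, reached 2.03 to either side. Against the wild-type libraries, which both share, Unc5c had log2 fold changes of -0.64 with scrambled peptide and -0.52 with Cdk5i peptide. The values were 1.77 and 1.53 for Prn, 0.47 and 0.47 for Pdzd2, 0.42 and 0.44 for 2610035D17Rik, and -0.31 and -0.36 for Ercc6l2.

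**Figure D3:**
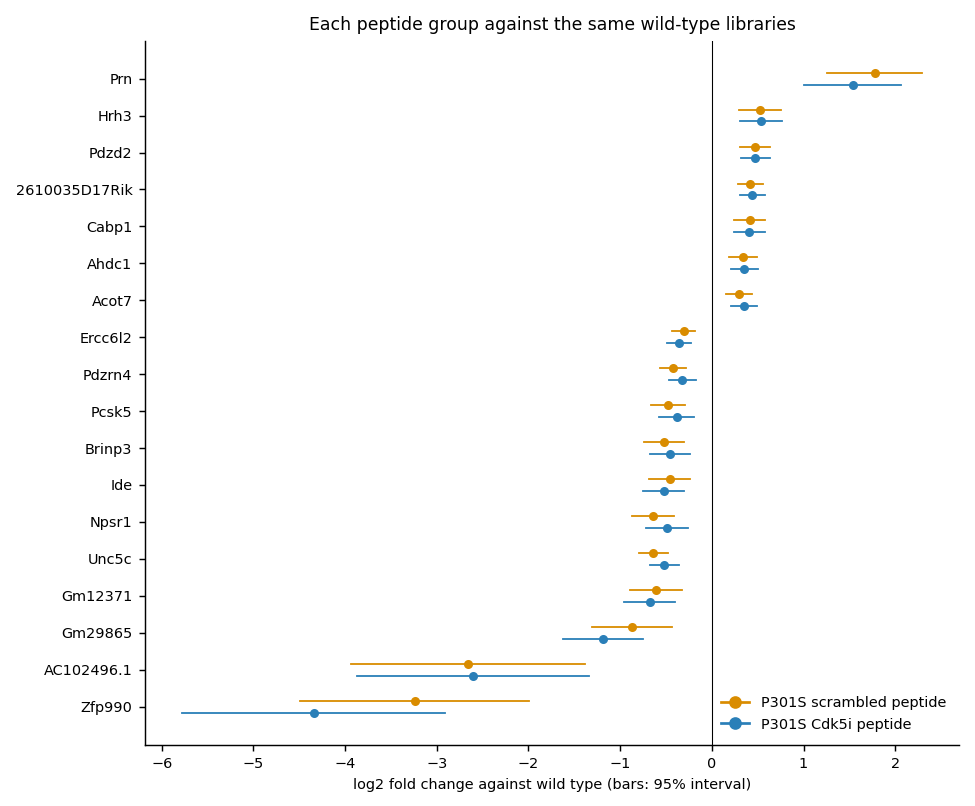
Log2 fold change of each peptide group against the same wild-type libraries, with 95% intervals, for 18 of the 20 genes (the 2 with 0 counts in wild type have no fold). For each gene the points lie on the same side of 0, with differences between peptides that have intervals reaching across 0.

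Over all 16046 genes, 2 differed between the peptides (0.0125%), and 855 had an unadjusted p under 0.05 (5.33%). Neither of the 2 passed in the pooled comparison. Mob3b, which encodes an adaptor of the MOB family of kinase activators, was at 6.12, 9.69 and 5.63 CPM in wild type and 5.51, 7.55 and 8.01 with scrambled peptide, but at 58.8, 52.0 and 55.8 with Cdk5i peptide. Its pooled log2 fold change was 2.13 with an edgeR adjusted p of 0.470. Gm9866 was at 62.4 ± 2.26 CPM in untreated mice, 35.6 ± 4.36 under scrambled peptide and 63.4 ± 2.60 with Cdk5i peptide (SD, n = 3), and its pooled log2 fold change was -0.33 (adjusted p = 0.669).

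Tau and Cdk5 genes did not pass the threshold. Mapt was at 194, 211 and 206 CPM in wild type and 226 to 245 in P301S, median 234, so its groups did not overlap. The log2 fold change was 0.20 (95% interval 0.09 to 0.32), with an edgeR adjusted p of 0.171, whereas DESeq2 called it. The files name mouse genes, and how reads of the transgene were counted is not given in the sources used here. Cdk5 was at 15.9 ± 0.554 and 17.9 ± 2.58 CPM (log2 fold change 0.17, adjusted p = 0.557). Cdk5r1 was at 19.3 ± 0.169 and 18.4 ± 1.24 CPM (-0.07, adjusted p = 0.741), and Cdk5r2, the gene of another Cdk5 activator, was at 0 counts in 9 of 9 libraries. Of 24 tested genes of tau, its kinases and phosphatases and the Cdk5 system, 0 passed with edgeR. DESeq2 called 2 of them higher, beside 99 higher of all 16046 genes. At an unadjusted p under 0.05, 7 were higher and 0 lower, beside 6.16% and 5.81% over all genes tested. There were 20 with positive and 4 with negative log2 fold changes, and their median was 0.12, beside 51.1% positive and 0.004 over all genes tested. Groups did not overlap for 5 of the 24, all higher, beside 3.22% higher over all genes tested. The tau kinase gene Ttbk1 was at 48.9 ± 2.22 and 57.5 ± 3.00 CPM (log2 fold change 0.24, adjusted p = 0.141), and Mark3, a kinase that loosens tau from microtubules, at 91.7 ± 1.73 and 102 ± 4.16 (0.15, adjusted p = 0.278).

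Receptors of the inhibitory transmitter GABA and their scaffold had a negative median of -0.09 over 20 tested genes. None passed with edgeR. At an unadjusted p under 0.05, 7 were lower and 2 higher, beside 5.81% and 6.16% over all genes tested. Groups did not overlap for 4, all lower, beside 3.28% lower over all genes tested. DESeq2 called 3 lower, Gabra3 and Gphn among them, beside 105 lower of all 16046 genes. Gphn, which encodes the scaffold gephyrin, was at 889, 809 and 1210 CPM in wild type and 633 to 764 in P301S, median 708, with wild type replicate 3 far above the others (log2 fold change -0.46, edgeR adjusted p = 0.131). The receptor subunit gene Gabra3 had a log2 fold change of -0.25 (92.8 ± 6.50 and 78.1 ± 2.37 CPM, adjusted p = 0.117). On the other side Gabrd, which encodes a subunit found outside synapses, had a log2 fold change of 0.22 (adjusted p = 0.400).

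Among 39 tested genes of netrin and other repulsive guidance systems, Unc5c passed with edgeR and no other did. DESeq2 called Slit2 lower as well, where it called 105 lower of all 16046 genes. The ligand gene Slit2 was at 246, 243 and 216 CPM in wild type and 157 to 205 in P301S (log2 fold change -0.32, edgeR adjusted p = 0.127). Other netrin receptor genes had log2 fold changes of -0.28 for Unc5d, 0.17 for Unc5a, 0.15 for Unc5b and -0.14 for Dcc, with adjusted p of 0.303, 0.415, 0.576 and 0.538. At an unadjusted p under 0.05, 6 of the list were lower, Unc5c included, and 1 higher, beside 5.81% and 6.16% over all genes tested. Groups did not overlap for 2, Unc5c and Slit2, both lower, beside 3.28% lower over all genes tested. In the list 17 were positive and 22 negative, with a median of -0.02. That median became 0.02 with library sizes taken without ribosomal RNA and mitochondrial genes and without TMM factors. Of the 29 genes of MEF2 transcription factors and neuropeptide receptors, Npsr1 passed with edgeR and DESeq2 and no other did with either, 10 were positive and 19 negative, and the median was -0.09. Mef2c, a factor of neuronal survival and synapse number, was at 742 and 635 CPM (log2 fold change -0.22, adjusted p = 0.435), and the opioid receptor gene Oprd1 at 11.9 ± 1.83 and 15.8 ± 2.37 (0.41, adjusted p = 0.259).

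Genes of glutamatergic synapses had log2 fold changes of both signs. Of 48 postsynaptic genes, 0 passed with edgeR and DESeq2 called 2 lower, beside 105 lower of all 16046 genes. At an unadjusted p under 0.05, 10 were higher and 8 lower, beside 6.16% and 5.81% over all genes tested. The median was -0.02, or 0.02 with library sizes taken without ribosomal RNA and mitochondrial genes and without TMM factors. The receptor genes Grik1 and Gria4 had log2 fold changes of -0.28 and -0.25 (edgeR adjusted p = 0.141 and 0.192), and Dlg4, which encodes the scaffold PSD-95, had 0.26 (adjusted p = 0.197). Of 34 genes of transmitter release, 0 passed with edgeR, and 2 higher and 3 lower had an unadjusted p under 0.05. DESeq2 called 2 of these 34 higher, beside 99 higher of all 16046 genes. Syn3, which encodes a synapsin of synaptic vesicles, was at 329.8 ± 8.24 and 392.1 ± 28.4 CPM (log2 fold change 0.25, adjusted p = 0.183). Over 20 genes of cell cycle entry, Ccnd3, which encodes cyclin D3, was the nearest to the threshold. Its libraries had 3.13, 2.57 and 2.36 CPM in untreated mice, 6.52, 5.40 and 5.63 under scrambled peptide and 4.15, 4.34 and 4.70 with Cdk5i peptide (0.93, adjusted p = 0.0629), and the groups did not overlap. In that list 0 passed with edgeR, 3 higher and 0 lower had an unadjusted p under 0.05, and DESeq2 called Ccnd3.

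Lists of stress, energy and chromatin genes gave no gene past the threshold with edgeR. Over all genes tested, 6.16% were higher and 5.81% lower at an unadjusted p under 0.05, and DESeq2 called 99 higher and 105 lower of 16046. Of 48 nuclear-encoded respiratory chain genes, 0 had an unadjusted p under 0.05 and the median was 0.01. Of 12 genes of complement and the interferon response, likewise 0 had one. Of 27 genes of heat shock and unfolded protein response, 0 higher and 3 lower had one, among them the endoplasmic reticulum chaperone gene Hspa5 (73.3 ± 10.6 and 52.1 ± 8.37 CPM, log2 fold change -0.49, adjusted p = 0.234), which DESeq2 called. Of 39 chromatin modifier genes, 5 higher and 1 lower had one, the lower being the histone demethylase gene Kdm6a (104 ± 5.60 and 88.7 ± 3.29 CPM, log2 fold change -0.24, adjusted p = 0.117), which DESeq2 also called. Of 35 autophagy and lysosome genes 3 higher and 1 lower had one, and of 23 activity-induced genes 0 had one. DESeq2 called 0 genes of the respiratory chain, complement, autophagy, activity and DNA repair lists. In all, 4 of 538 tested genes of the 25 lists passed, and these were Lamr1-ps1, Prn, Unc5c and Npsr1. Over all genes tested the share was 0.125%. The lists were chosen with earlier results of these data known, so this count is not a result about the lists.

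Markers of striatal neurons and of non-neuronal cells were read beside these genes. Of 15 tested markers of striatal neurons, 14 had positive log2 fold changes, beside 51.1% positive over all genes tested. The median over these markers was 0.36 and ranged from 0.08 to 0.60 over the alternatives. Their summed level was 2316 to 3630 CPM in wild type and 2288 to 4488 in P301S, so it overlapped. None passed with edgeR or DESeq2, and 1 had an unadjusted p under 0.05 (Ppp1r1b, a regulator of phosphatase 1 in striatal neurons, 10.5 ± 3.76 and 18.7 ± 5.18 CPM). At that p, 6.16% were higher and 5.81% lower over all genes tested. Of 13 tested oligodendrocyte markers 11 were positive, with a median of 0.17 and summed levels of 170 to 178 CPM and 169 to 226 CPM. None passed with edgeR or DESeq2, and 2 higher had an unadjusted p under 0.05, led by the myelin gene Mobp (1.83 ± 0.454 and 3.11 ± 0.792 CPM, log2 fold change 0.76, adjusted p = 0.230). Astrocyte markers had a median of -0.15 over 13 genes (0.001 without wild type replicate 1) and summed levels of 1011 to 1085 and 813 to 1143 CPM. In RNA of pooled nuclei, fewer nuclei of a kind and less RNA per nucleus cannot be told apart, and the part of these markers in the results above was not tested.

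**Figure D4:**
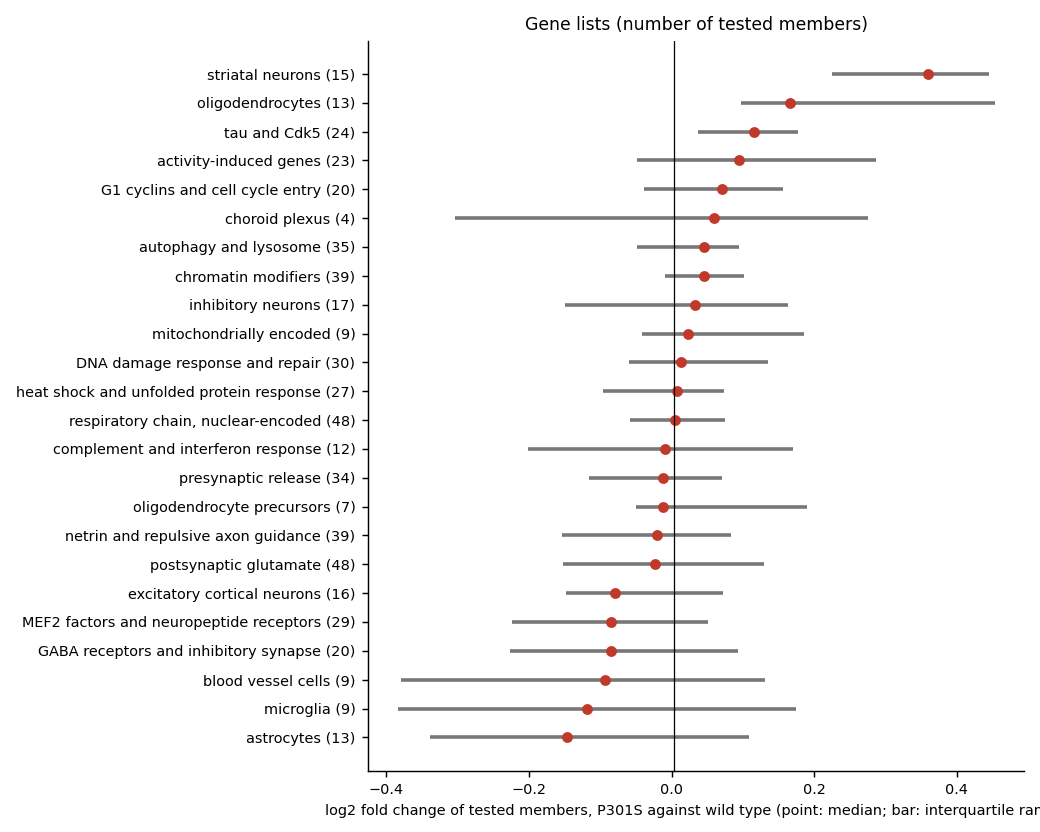
Median log2 fold change (point) and interquartile range of the members (bar) of 24 gene lists for P301S against wild type, without the prion locus list; numbers in parentheses are tested members and the vertical line is the median of all genes tested. Striatal neuron and oligodendrocyte markers (0.36 and 0.17) and tau and Cdk5 genes (0.12) have the highest medians of the lists drawn, and astrocyte markers (-0.15) the lowest.

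Among long genes, those that were lower outnumbered those that were higher. Counts here cover introns, so a long gene collects many of its reads outside exons. Of 598 tested genes with a span of 300 kb or more, 87 were lower and 12 higher at an unadjusted p under 0.05, or 14.5 and 2.01%. Among the 3899 tested genes under 10 kb these shares were 3 and 3.46%, and among the 2003 of 100 to 300 kb they were 8.14 and 6.94%. Over all 16046 genes tested they were 5.81 and 6.16%. Of the 11 genes that fell, 4 span 300 kb or more (Unc5c, Pdzrn4, Pcsk5 and Brinp3), as does 1 of the 9 that rose, Pdzd2. The median log2 fold change of the 598 genes was -0.06, and it was -0.11 with scrambled peptide and -0.03 with Cdk5i peptide, which share the wild-type libraries. The difference between the peptides had a median of 0.10 in the same genes. By library, the median deviation of these genes ran from -0.03 to 0.11 in wild type and from -0.11 to 0.08 in P301S, so the groups overlapped. The 87 became 42 without wild type replicate 1, and over the fits with 1 library left out the 12 ranged from 4 (without wild type replicate 3) and 5 (without wild type replicate 1) to 44 (without wild type replicate 2). The 12 became 38 with library sizes taken without ribosomal RNA and mitochondrial genes and without TMM factors.

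**Figure D5:**
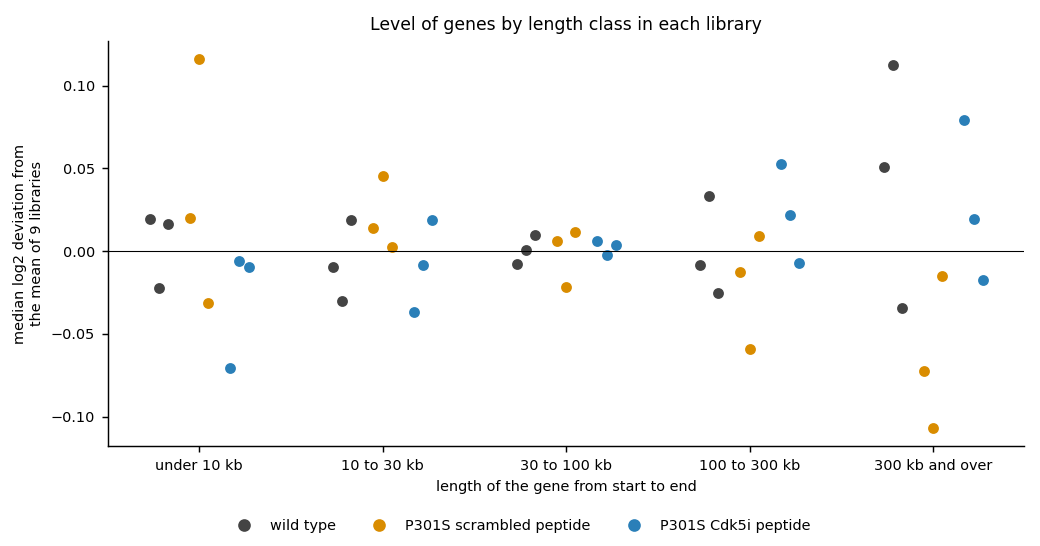
Median log2 deviation of tested genes from their mean over the 9 libraries, for each library, by length class of the gene; points are libraries, coloured by group. In genes of 300 kb and over the libraries spread the most, from -0.11 to 0.11, and the groups overlap.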

How the data were processed

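RNA was extracted from NeuN-sorted cortical nuclei with a kit for fixed tissue and made into stranded total RNA libraries by random priming, per the labels' protocols, with paired reads of 40 bases. The deposited values are raw counts of read pairs per gene, 1 table per library, made by the authors with featureCounts over whole genes (exons and introns) with reversed strand on Ensembl 102, per the file headers. No option to count overlapping or multiply mapped reads appears in that command. The submitters' processing notes name STAR 2.7.9a, DESeq2 1.36.0, Subread 2.0.0 and the build GRCm38. Of 55401 gene IDs, 55141 (99.5%) matched a symbol in the reference table.

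Groups came from the sample titles. Counts were fitted in R 4.3.3 with edgeR 4.0.16 (TMM, filterByExpr with a minimum count of 10, robust quasi-likelihood, 2 groups) and tested with Benjamini-Hochberg adjustment at 0.05. The fit left 7 residual degrees of freedom, with a prior of 6.94. A second fit with 3 group means compared the peptides. The median SE of a log2 fold change was 0.121, and a typical 95% interval reached 0.261 to either side. Each library held 21584712 to 26715938 counts. Libraries of 1 group differed by more than sampling noise, so none was a copy. A group at 0 was given a floor of 3 counts over the group, and floors and counting intervals cover counting error only, since reads copied by PCR are not independent molecules. The SE of a log2 fold change was derived from its F statistic. The procedure was tested on simulated data.

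The genes named are up to 15 higher and 15 lower past the threshold, listed genes past it, the 3 members of a list with the lowest p, and Mapt, Cdk5, Cdk5r1, Cdk5r2, Prnp, Prn and Gphn. Rpsa, Mob3b, Gm9866, Lzts3, Pdlim5, Gabrd, Mef2c and the netrin receptor genes beside Unc5c were added after their values were seen. Some genes that this rule covers are not reported here. Members and lists were chosen with earlier results of these data known. Alternatives used DESeq2 1.42.0, limma 3.58.1 (voom) and sva 3.50.0, other library sizes and low-count filters, covariates, the replicate number as a block, and each library left out.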

Additional observations from a re-analysis of the deposited data

Results flagged for a closer look

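In 4 of 24 genes checked, 1 of the 6 P301S libraries lay far from the other 5, where chance gives about 1 in 20 groups. Scrambled peptide replicate 1 had 0.27 CPM of Zfp990, against 0.0381 to 0.0893 in the other 5. Cdk5i peptide replicate 3 had 25.9 CPM of Npsr1, against 19.4 to 21.6. Cdk5i peptide replicate 2 had 490 CPM of Brinp3, against 377 to 407. Cdk5i peptide replicate 3 had 57.2 CPM of Ide, against 64.5 to 66.4.

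The peptide groups differed from each other in 2 genes. The Cdk5i minus scrambled log2 difference was 2.98 for Mob3b (SE 0.194, edgeR adjusted p = 0.000983) and 0.83 for Gm9866 (SE 0.0813, adjusted p = 0.000983).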

How the results depend on the processing

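The counts of 9 higher and 11 lower genes depended on the processing. Higher and lower counts were 99 and 105 with DESeq2, 4 and 3 with limma-voom, 174 and 171 without a low-count filter, 3 and 2 with a mean of at least 50 counts, 5 and 3 with non-robust dispersion, and 5 and 4 with 1 surrogate variable. There were 21 higher with library sizes without ribosomal RNA and mitochondrial genes and without TMM factors. With the mitochondrial share as covariate 14 were higher. There were 6 lower with DESeq2 size factors and 6 with 3 group means. With 1 library left out they ranged from 2 to 7 higher and 2 to 8 lower. The cause was not tested. The filters also change how many genes are tested, which was 32394 without a low-count filter and 11917 with a mean of at least 50 counts. Of the 20 genes, 15 passed with DESeq2 and the other 5 had no adjusted p there; 7 passed with limma-voom, 13 with DESeq2 size factors and 20 without a filter. Over 2120 values of named genes under the alternatives, 0 called values reversed. List medians moved by more than their SD in 26 of 499 values. DESeq2 called 27 genes between the peptides, none of them among the 20.

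With the replicate number as a block, 1 gene was higher (Lamr1-ps1) and 0 lower, and 2 differed between the peptides. The correlation of deviations exceeded 0.1 in 3 of 9 same-numbered pairs (-0.412 to 0.228, against -0.197 to 0.366 in other pairs). Only 1 of 9 libraries correlated best with its own number. With 3 libraries per group, such correlations cannot decide whether libraries of the same number share a batch. Depth limits low genes such as Zfp990, which had 13 counts over the P301S libraries. Prnp had at most 2 counts in any library, but it overlaps Prn on the same strand, and read pairs that overlap several genes were not counted.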

Other observations

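A further 18 genes had an edgeR adjusted p between 0.05 and 0.1 and did not pass; they were chosen after their values were seen. Neuronal genes among them with higher levels in P301S were Baiap2, which encodes a synaptic actin regulator (207 ± 11.9 and 265 ± 16.3 CPM, log2 fold change 0.36, adjusted p = 0.0525), Ncs1, a calcium sensor (58.9 ± 5.62 and 72.5 ± 2.18 CPM, 0.30, adjusted p = 0.0885), the potassium channel subunit gene Kcnab2 (119 ± 2.62 and 146 ± 8.58 CPM, 0.30, adjusted p = 0.0803) and Rap1gap, which switches off the small GTPase Rap1 (125 ± 14.9 and 172 ± 17.0 CPM, 0.46, adjusted p = 0.0885). Calb1, which encodes the calcium buffer calbindin, was lower (45.2 ± 4.24 and 35.2 ± 2.05 CPM, log2 fold change -0.36, adjusted p = 0.0725), as was the membrane glycoprotein gene Gpm6a (602 ± 57.1 and 483 ± 14.7 CPM, -0.32, adjusted p = 0.0892).

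Dbp, which encodes a transcription factor under circadian control, was at 15.9, 19.2 and 17.5 CPM in wild type and 20.0 to 25.4 in P301S (log2 fold change 0.44, edgeR adjusted p = 0.0866). Per1, another gene of the clock and a member of the activity list, was at 38.4 ± 10.8 and 55.1 ± 17.2 CPM with overlapping groups (0.52, adjusted p = 0.542). The time of day of tissue collection is not given in the sources used here.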
